A study of Homo sapiens with 6 samples.

Results

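The RNA interference machinery comprised 10 genes taken by symbol: the Argonautes AGO1, AGO2, AGO3 and AGO4, the nucleases DROSHA and DICER1, the Drosha cofactor DGCR8, the export receptor XPO5, and TNRC6A and TNRC6C of the GW182 family. All 10 were among the 62696 genes in the count tables, and all 10 were among the 18569 genes with enough reads to be tested. RNA came from 12Z cells, an established human epithelial cell line from endometriosis, at passage 40 and 72 h after lipid transfection of an siRNA. Cells that received 1 siRNA against LINC01638, a long non-coding RNA, gave 3 libraries (replicates A, B and C), and cells that received a commercial control siRNA gave 3 more (replicates A, B and C). Every library therefore came from cells that carried a transfected siRNA, and untransfected cells, a second siRNA or a rescue were not analysed here, so effects of the siRNA itself and of losing its target cannot be told apart. The labels do not say that replicates were separate cultures, so p-values here reflect how far these libraries scatter, and that scatter may be only technical.

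MicroRNAs are cut from long primary transcripts in the nucleus by the Microprocessor, which consists of Drosha and its RNA-binding cofactor DGCR8. Exportin-5 carries the hairpin to the cytoplasm, Dicer trims it to a short duplex, and an Argonaute protein keeps a strand as its guide. TNRC6 proteins bind Argonaute and recruit the deadenylases that lead to decay of the target mRNA. Synthetic siRNAs enter this pathway at the Argonaute step, and among human Argonautes AGO2 is known as the efficient slicer of perfectly matched targets.

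The sequences below are those the results refer to. The first pair are the 250 bases before the RefSeq starts of AGO4 and AGO1 (build GRCh38.p14, plus strand, 5′ to 3′), shown because these neighbouring genes differed in opposite directions. They lie at chr1:35807766-35808015 and chr1:35882959-35883208. Capitals mark matches, on either strand, to CCAAT or GGGCGG, which do not overlap each other there. The RefSeq start of AGO1 lies downstream of the GENCODE 29 start, so its window is inside the annotated span of the gene.
AGO4 upstream: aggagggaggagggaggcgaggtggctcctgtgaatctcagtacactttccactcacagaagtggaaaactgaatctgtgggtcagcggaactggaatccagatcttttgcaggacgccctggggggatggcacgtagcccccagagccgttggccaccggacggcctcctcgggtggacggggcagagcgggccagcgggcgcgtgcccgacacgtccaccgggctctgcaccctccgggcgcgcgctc
AGO1 upstream: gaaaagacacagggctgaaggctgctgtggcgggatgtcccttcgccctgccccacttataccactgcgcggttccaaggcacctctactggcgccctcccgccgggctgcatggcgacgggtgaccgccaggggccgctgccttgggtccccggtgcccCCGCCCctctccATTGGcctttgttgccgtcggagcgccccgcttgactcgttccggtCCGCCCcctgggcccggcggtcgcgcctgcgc

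The next sequences are mature miRNAs from RefSeq (GRCh38.p14, 5′ to 3′), with the seed, bases 2 to 8, in capitals. The first 6 are encoded within the span of long host transcripts described further on, and the last 2 lie in exons of DGCR8, whose own mRNA is a known Drosha substrate. The 8 sequences hold 8 distinct seeds. They lie, in the order shown, at chr1:9151735-9151756, chr11:122152275-122152296, chr11:122146568-122146589, chr11:122099809-122099830, chrX:134546371-134546393 and chr11:568112-568133 on the minus strand, and chr22:20086072-20086093 and chr22:20085797-20085818 on the plus strand.
hsa-miR-34a-5p (in MIR34AHG): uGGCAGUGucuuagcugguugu
hsa-miR-100-5p (in MIR100HG): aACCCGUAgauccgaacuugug
hsa-let-7a-5p (in MIR100HG): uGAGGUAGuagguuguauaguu
hsa-miR-125b-5p (in MIR100HG): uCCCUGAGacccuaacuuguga
hsa-miR-503-5p (in MIR503HG): uAGCAGCGggaacaguucugcag
hsa-miR-210-3p (in MIR210HG): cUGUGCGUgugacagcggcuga
hsa-miR-1306-5p (in DGCR8): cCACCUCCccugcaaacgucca
hsa-miR-3618 (in DGCR8): uGUCUACAuuaaugaaaagagc

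Gene counts came to 50470195 to 58148664 per LINC01638 siRNA library and to 45617234 to 55031286 per control library. LINC01638 itself (ENSG00000233521.8) had 125, 103 and 123 counts in replicates A, B and C given LINC01638 siRNA, against 407, 334 and 414 in the control replicates, a difference of −1.87 on the log2 scale (SE 0.111, edgeR adjusted p = 3.73e-11). Some mapped reads fell in no exon annotated on the strand counted, and these can include reads opposite to exons. They made up 13.2% ± 1.67 with LINC01638 siRNA and 9.18% ± 0.864 with control siRNA (SD, n = 3 each). An exact permutation test, two-sided, gave p = 0.1, and 3 libraries against 3 cannot give a lower one. This share moved with the groups beside every result below, and its part in them was not tested. Of 8 epithelial markers the keratins KRT8, KRT18, KRT19 and KRT7 were abundant, and the others were low. EPCAM stood at a mean of 1.43 CPM (gene counts scaled to an equal library total) with LINC01638 siRNA and 0.363 CPM with control siRNA. In the same order CDH1 stood at 3.70 and 7.85 CPM, CLDN4 at 0.688 and 0.705 CPM and CLDN7 at 0.945 and 0.895 CPM. The summed level of the list, nearly all from keratins, was 3315 to 3819 CPM with LINC01638 siRNA and 5009 to 5441 CPM with control siRNA. For 5 mesenchymal markers the sums were 6336 to 6681 CPM and 10074 to 11359 CPM in the same order. In that order COL1A1 stood at 3217 and 4330 CPM, SPARC at 1949 and 3961 CPM and VIM at 1013 and 2232 CPM. CDH2 stood at 250 and 292 CPM, and COL1A2 at 39.4 and 68.1 CPM. For 5 leukocyte markers the sums were 35.5 to 37.1 CPM with LINC01638 siRNA and 45.0 to 51.3 CPM with control siRNA, nearly all from CD14, while CD3E had no count. The 5 endothelial markers summed to 10.8 to 13.0 CPM with LINC01638 siRNA and 12.3 to 14.9 CPM with control siRNA, with PECAM1 below 0.1 CPM. The 3 smooth muscle markers summed to 4.95 to 7.86 CPM with LINC01638 siRNA and 4.80 to 6.02 CPM with control siRNA. The part of these differences in the members' values was not tested.

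The 10 genes moved in both directions. Their values are CPM scaled with edgeR's TMM factors, and a gene was called at an edgeR quasi-likelihood p of at most 0.05 after Benjamini-Hochberg adjustment over all genes tested. With LINC01638 siRNA, AGO1, AGO3, DICER1, TNRC6A and TNRC6C were higher, AGO2, AGO4, DROSHA and XPO5 were lower, and DGCR8 did not pass. Over all genes 4887 were higher and 5503 lower, or 6349 and 4288 with library totals alone, a scaling that moved the median of all genes by 0.10 on the log2 scale and left the calls of the 10 as they were. So 5 of 10 were called higher, where 26.3% of all genes tested were, and 4 of 10 lower, where 29.6% were. In either direction 9 of 10 were called against 56.0% of all genes. The share was larger when only protein-coding genes were fitted, with 4442 of 13586 called higher and 4519 lower. The 2 groups did not overlap for 9 of 10 members, against 61.5% of all genes. The median log2 fold change was 0.06 over the 10 genes and −0.0014 over all genes tested, and the absolute values ran from 0.06 to 1.06, with a median of 0.33 over all genes. In bulk RNA, fewer cells of a type and less RNA per cell cannot be told apart. These genes have high counts, 605 to 17374 per library, so a small difference can pass the test.

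**Figure D1:**
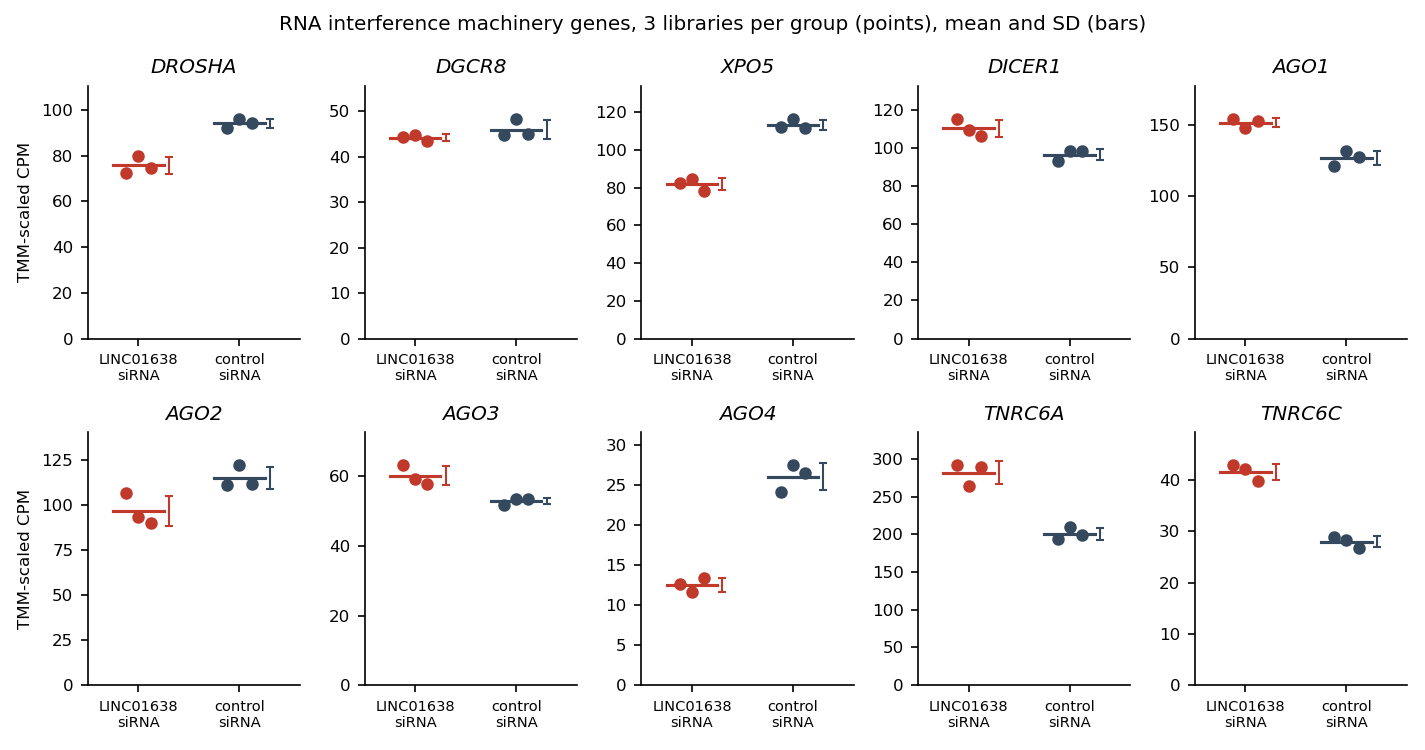
TMM-scaled CPM (vertical axes, starting at 0) of the 10 genes in the 3 LINC01638 siRNA libraries (red, left) and the 3 control siRNA libraries (dark, right). Points are libraries, horizontal lines means and bars SD. The groups are apart in every panel but that of DGCR8, and AGO4 shows the widest separation, 11.6 to 13.3 CPM with LINC01638 siRNA against 24.2 to 27.5 CPM with control siRNA.

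AGO4 had the largest change of the Argonautes and of all 10 genes. Its level was 12.6, 11.6 and 13.3 CPM in replicates A, B and C given LINC01638 siRNA, against 24.2, 27.5 and 26.6 CPM in control replicates A, B and C. All 3 LINC01638 siRNA libraries lay far below the lowest control library. AGO4 (ENSG00000134698.11, GRCh38 chromosome 1, 35808172 to 35857890, plus strand) thus averaged 12.5 ± 0.851 CPM with LINC01638 siRNA and 26.1 ± 1.70 CPM with control siRNA (SD, n = 3 each). It fell 2.08-fold, or −1.06 on the log2 scale (SE 0.0740, edgeR adjusted p = 3.80e-10). It was the 1 member of 10 called lower by at least 2-fold, as were 4.25% of all genes tested. Of the genes called lower, 687 fell at least as far, AGO4 among them. AGO4 encodes an Argonaute that binds small RNAs without known efficient slicing.

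AGO2, the slicing Argonaute (ENSG00000123908.12, chromosome 8, 140520156 to 140635619, minus strand), fell by far less. Its level was 106, 93.5 and 90.2 CPM in replicates A, B and C given LINC01638 siRNA, against 111, 122 and 112 CPM in the control replicates. The highest LINC01638 siRNA library, replicate A, came close to the lowest control library without reaching it. The log2 fold change was −0.25 (SE 0.0594, edgeR adjusted p = 0.00154), a 1.19-fold fall. With library totals alone it was −0.14 (edgeR adjusted p = 0.0460).

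AGO1 and AGO3, which also load miRNAs, rose. AGO1 (ENSG00000092847.14, chromosome 1, 35869808 to 35930528, plus strand) had 154, 148 and 153 CPM in the LINC01638 siRNA replicates, against 121, 132 and 128 CPM in the control replicates. Its log2 fold change was 0.26 (SE 0.0475, edgeR adjusted p = 1.04e-04). AGO3 (ENSG00000126070.20, chromosome 1, 35930718 to 36072500, plus strand) stood at 63.2, 59.4 and 57.9 CPM with LINC01638 siRNA, against 51.9, 53.5 and 53.5 CPM with control siRNA. Its log2 fold change was 0.18 (SE 0.0517, edgeR adjusted p = 0.00490), and 0.29 with library totals alone. The lowest LINC01638 siRNA library of AGO3, at 57.9 CPM, was above both control libraries at 53.5 CPM.

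Because AGO1 and AGO3 rose while AGO2 and AGO4 fell, the make-up of the Argonaute transcripts was taken within each library, where scaling plays no part. AGO4 held 3.75%, 3.72% and 4.24% of the counts of the 4 Argonautes in the LINC01638 siRNA libraries, against 7.85%, 8.22% and 8.33% in the control libraries. AGO2 held 30.1% ± 1.46 with LINC01638 siRNA and 35.8% ± 0.750 with control siRNA. AGO1 held 47.3% ± 1.37 with LINC01638 siRNA and 39.6% ± 0.335 with control siRNA, and AGO3 18.7% ± 0.278 and 16.5% ± 0.468 in the same order (SD, n = 3 each). For each of the 4 genes the shares of the groups did not overlap (exact permutation p = 0.1 for each, again the lowest possible). The 4 shares of a library add up to the whole, so they are not separate results. Shares within other sets of genes were not taken for comparison. Levels of single genes did not overlap for 61.5% of all genes tested. Weighted by exon length, AGO4 held 7.98% ± 0.559 with LINC01638 siRNA and 16.0% ± 0.445 with control siRNA.

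**Figure D2:**
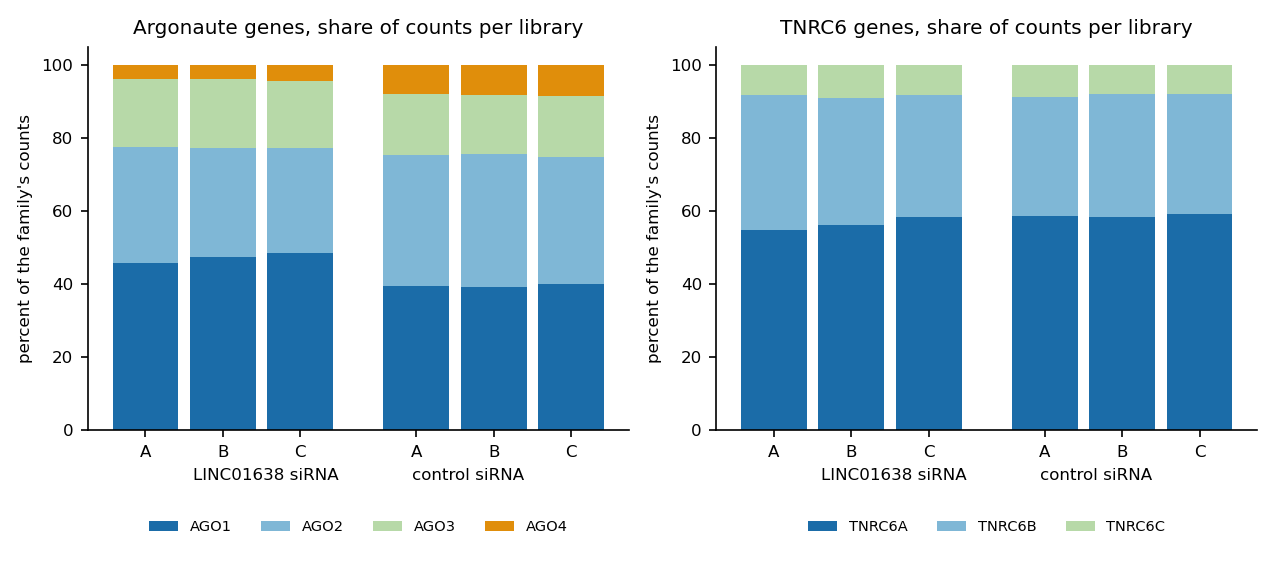
Stacked bars show, for each library (A, B and C of LINC01638 siRNA on the left and of control siRNA on the right of each panel), the percent of the summed counts of the Argonaute genes (left panel) and TNRC6 genes (right panel) held by each gene. The AGO4 segment is 3.72% to 4.24% with LINC01638 siRNA and 7.85% to 8.33% with control siRNA, while the TNRC6 segments overlap between groups.

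Their sum was then taken on the TMM scale. The 4 Argonautes added up to 336, 313 and 314 CPM in the LINC01638 siRNA libraries, against 308, 334 and 319 CPM in the control libraries. The means were 321 ± 13.2 CPM with LINC01638 siRNA and 321 ± 13.1 CPM with control siRNA, and the groups overlapped (exact two-sided permutation p = 1). The comparison of sums depended on the scaling: with library totals alone the sums were 333 ± 15.8 CPM with LINC01638 siRNA and 309 ± 10.8 CPM with control siRNA and did not overlap (exact permutation p = 0.1).

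Ratios between pairs of genes were then compared within libraries, 11 pairs in all. AGO1 over AGO4 averaged 3.60 ± 0.0774 on the log2 scale with LINC01638 siRNA and 2.28 ± 0.0390 with control siRNA, the widest shift of the 11 pairs at 1.32. AGO3 over AGO4 shifted by 1.24, AGO2 over AGO4 by 0.81 and AGO1 over AGO2 by 0.51, each without overlap between groups. AGO2 over AGO3 shifted by −0.43, also without overlap. AGO1 over AGO3 shifted by 0.08, and the groups overlapped (exact permutation p = 0.2). With 11 pairs the lowest adjusted p that 3 libraries against 3 gave was 0.157, so no pair could pass 0.05. Ratios over AGO4 share the fall of that gene and are not separate results. Pairs drawn from all genes tested were not compared.

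AGO4, AGO1 and AGO3 lie in a row on chromosome 1, on the same strand. AGO1 starts 11917 bases after the end of AGO4, and AGO3 starts 189 bases after the end of AGO1 (GENCODE 29). The gene that fell 2.08-fold is therefore the upstream neighbour of the pair that rose. The nearest tested protein-coding genes on either side, CLSPN and TEKT2, were taken after the members' values were seen. CLSPN, a replication checkpoint mediator, stood at 131 ± 5.92 CPM with LINC01638 siRNA and 149 ± 7.38 CPM with control siRNA (log2 fold change −0.18, edgeR adjusted p = 0.00576). TEKT2, a tektin of cilia, was at 0.346 ± 0.0509 CPM with LINC01638 siRNA and 0.650 ± 0.0515 CPM with control siRNA (log2 fold change −0.90, edgeR adjusted p = 0.0134).

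**Figure D3:**
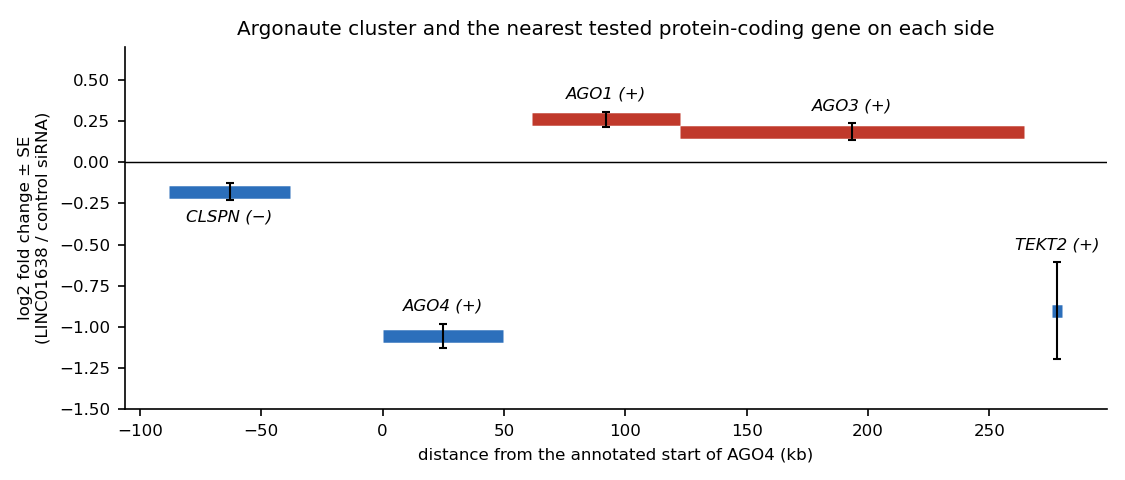
Log2 fold change (LINC01638 siRNA over control siRNA, vertical axis, error bars SE) of the Argonaute cluster and the nearest tested protein-coding gene on each side, each drawn over its annotated span as distance from the start of AGO4 in kb, with its strand. AGO1 (0.26) and AGO3 (0.18) lie above 0, and AGO4 (−1.06) lies below.

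The upstream sequences printed above also differ in content. The AGO4 window holds no CCAAT and no GGGCGG on either strand, whereas the AGO1 window holds 1 CCAAT and 2 GGGCGG. A window taken the same way for AGO3 lies inside the GENCODE 29 span of that gene, with 27 of its bases in annotated exons, and holds no CCAAT and 2 GGGCGG. Among 35116 RefSeq windows of this length, 32.0% hold CCAAT and 42.6% hold GGGCGG. The E-box CACGTG (6.34% of windows) and the TATA motif TATAAA (10.7%), searched on both strands too, are in none of the 3. G and C make up 66.4% of the bases for AGO4, 71.6% for AGO1 and 80.0% for AGO3, against a median of 58.0%.

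Both TNRC6 members rose. TNRC6A (ENSG00000090905.19, chromosome 16, 24610209 to 24827632, plus strand), the founding GW182 scaffold, had 291, 264 and 289 CPM in replicates A, B and C given LINC01638 siRNA, against 194, 209 and 199 CPM in the control replicates. Every LINC01638 siRNA library was above every control library. Its log2 fold change was 0.49 (SE 0.0524, edgeR adjusted p = 1.37e-07). TNRC6C (ENSG00000078687.18, chromosome 17, 77959240 to 78108835, plus strand) had 42.9, 42.2 and 39.9 CPM with LINC01638 siRNA, against 28.8, 28.3 and 26.8 CPM with control siRNA, again with no overlap. Its exons share 1438 of 11111 bases with TNRC6C-AS1 on the other strand. It rose 1.49-fold, or 0.58 on the log2 scale (SE 0.0578, edgeR adjusted p = 5.53e-08).

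The remaining family gene, TNRC6B (ENSG00000100354.21), is not among the 10 but belongs to a list of Argonaute partners. It stood at 197, 164 and 165 CPM with LINC01638 siRNA, against 108, 121 and 110 CPM with control siRNA, and rose 1.55-fold (log2 fold change 0.64, SE 0.0678, edgeR adjusted p = 8.65e-07). The 3 TNRC6 genes together summed to 498 ± 30.7 CPM with LINC01638 siRNA and 342 ± 14.9 CPM with control siRNA, a ratio of 1.46 without overlap (exact permutation p = 0.1). TNRC6A held 56.5% ± 1.85 of these counts with LINC01638 siRNA and 58.7% ± 0.465 with control siRNA, and the shares of all 3 genes overlapped between groups. The difference for TNRC6A, −2.26 percentage points, was −1.45 without LINC01638 siRNA replicate A, and that for TNRC6B, 2.08 points, was 1.11. TNRC6C held 8.38% ± 0.525 with LINC01638 siRNA and 8.20% ± 0.454 with control siRNA, and this difference ran from −0.124 to 0.441 percentage points when any 1 of the 6 libraries was left out, below 0 without LINC01638 siRNA replicate B.

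Of the Microprocessor genes, DROSHA fell and DGCR8 did not pass the test. DROSHA, the nuclear RNase III (ENSG00000113360.17, chromosome 5, 31400497 to 31532196, minus strand), had 72.4, 80.0 and 74.8 CPM in the LINC01638 siRNA replicates, against 92.3, 96.1 and 94.1 CPM in the control replicates. The highest LINC01638 siRNA library was clearly below the lowest control library. Its log2 fold change was −0.31 (SE 0.05, edgeR adjusted p = 2.18e-05). DGCR8 (ENSG00000128191.17, chromosome 22, 20080232 to 20111877, plus strand) had 44.3, 44.8 and 43.4 CPM with LINC01638 siRNA, against 44.7, 48.3 and 44.9 CPM with control siRNA, so the groups overlapped. Its log2 fold change of −0.06 did not pass (SE 0.0535, edgeR adjusted p = 0.389), and the 95% interval ran from −0.17 to 0.06, so that changes of the size of XPO5's lie outside it. The sign for DGCR8 turned to 0.05 with library totals alone.

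The log2 ratio of DROSHA to DGCR8 within a library was 0.711, 0.837 and 0.786 with LINC01638 siRNA, against 1.05, 0.994 and 1.07 with control siRNA. It was lower by 0.26 on average, without overlap (exact permutation p = 0.1, adjusted p = 0.157 over 11 pairs). The hairpins of miR-3618 and miR-1306 cover 88 and 85 of the 7315 exonic bases of DGCR8 on the same strand. Their own rows held 0 counts in all 6 libraries. Reads over several genes are kept in a separate row, so these counts of 0 cannot show that the hairpins were absent. DGCR8 also shares 526 exonic bases with an antisense gene, and up to 3.62% of its reads lay on the opposite strand.

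XPO5, the export receptor for miRNA precursors (ENSG00000124571.18, chromosome 6, 43522330 to 43576075, minus strand), had the largest fall after AGO4. It stood at 82.6, 84.3 and 78.3 CPM in replicates A, B and C given LINC01638 siRNA, against 112, 116 and 111 CPM in the control replicates. The groups were well apart, with a difference of −0.47 on the log2 scale (SE 0.0482, edgeR adjusted p = 6.95e-08), a 1.39-fold fall. Its exons share 348 of 8522 bases with POLR1C on the other strand, which the strand-specific counts keep apart.

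DICER1, the cytoplasmic RNase III (ENSG00000100697.17, chromosome 14, 95086228 to 95158010, minus strand), rose slightly. It had 115, 109 and 107 CPM with LINC01638 siRNA, against 93.1, 98.5 and 98.5 CPM with control siRNA. All LINC01638 siRNA values were above all control values, with a difference of 0.19 on the log2 scale (SE 0.0489, edgeR adjusted p = 0.00228), or 0.29 with library totals alone. The log2 ratio of DICER1 to DROSHA was 0.55 ± 0.114 with LINC01638 siRNA and 0.04 ± 0.0264 with control siRNA, without overlap (exact permutation p = 0.1).

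**Figure D4:**
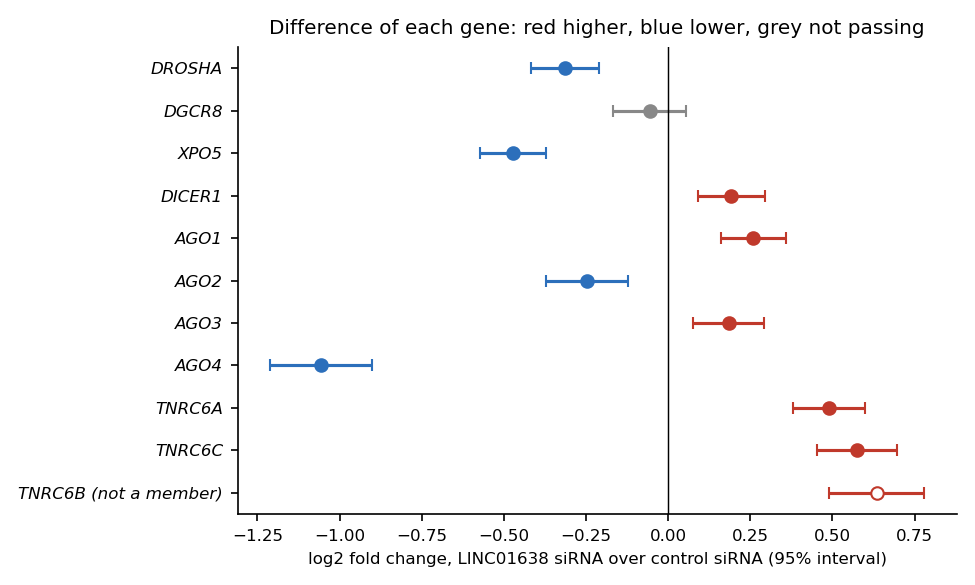
Log2 fold change (LINC01638 siRNA over control siRNA, horizontal axis) with its 95% interval for the 10 genes in pathway order and for TNRC6B (open symbol). Red genes are higher, blue lower and grey not passing: AGO4 at −1.06 lies farthest from 0, and the interval of DGCR8, −0.17 to 0.06, spans 0.

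Levels of different genes were compared per length, as TMM-scaled CPM per kb of annotated exon. Exons of all annotated transcripts of a gene were merged for this length. Which transcripts were expressed was not measured, so the ranks can depend on the annotation. TNRC6A was the most abundant member in both groups, at 21.8 ± 1.18 CPM per kb with LINC01638 siRNA and 15.5 ± 0.600 with control siRNA. With LINC01638 siRNA it was followed by AGO1 (10.9 ± 0.226 CPM per kb), DROSHA (9.74 ± 0.499), XPO5 (9.59 ± 0.365) and DICER1 (8.99 ± 0.364). DROSHA overlapped XPO5 there, and XPO5 overlapped DICER1. AGO2 and DGCR8, at 6.11 ± 0.538 and 6.04 ± 0.0984 CPM per kb, also overlapped.

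TNRC6C (3.75 ± 0.141 CPM per kb), AGO3 (2.84 ± 0.128) and AGO4 (1.72 ± 0.117) came last with LINC01638 siRNA. In control libraries XPO5 (13.3 ± 0.317 CPM per kb) and DROSHA (12.1 ± 0.247) followed TNRC6A, ahead of AGO1 (9.14 ± 0.365), DICER1 (7.87 ± 0.255), AGO2 (7.25 ± 0.390) and DGCR8 (6.28 ± 0.276). AGO4 (3.59 ± 0.234 CPM per kb) was there above TNRC6C (2.52 ± 0.0976) and AGO3 (2.50 ± 0.0423). Neighbours that overlapped in control libraries were DICER1 with AGO2, and TNRC6C with AGO3. AGO4 was thus the lowest of the 10 with LINC01638 siRNA and the eighth with control siRNA. AGO1 was the most abundant Argonaute per length in both groups.

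Other genes of the pathway were taken from 8 lists, whose counts stand beside 26.3% higher and 29.6% lower over all genes tested. Those shares were larger when only protein-coding genes were fitted, with 4442 of 13586 higher and 4519 lower. Of 17 factors of primary miRNA processing, 9 rose, 5 fell and 3 did not pass (median log2 fold change 0.13). SAFB2, a nuclear scaffold protein that assists some primary transcripts, rose 1.58-fold to 84.0 ± 4.04 CPM with LINC01638 siRNA, against 53.1 ± 1.25 CPM with control siRNA (edgeR adjusted p = 1.47e-09). BRCA1, better known for DNA repair (log2 fold change −0.54), ZC3H7B, an RNA-binding zinc finger protein (−0.44) and METTL3, the methylase that marks primary miRNAs (−0.40), fell. Of 12 genes of export and precursor control, 11 were tested, of which 5 rose, 2 fell and 4 did not pass (median 0.14), or 1 fell with library totals alone.

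LIN28A, which blocks let-7 maturation, fell 3.85-fold to 5.28 ± 0.704 CPM with LINC01638 siRNA, against 20.4 ± 1.33 CPM with control siRNA (edgeR adjusted p = 2.53e-12). LIN28B had no count in any library. TUT4, which adds uridines to pre-let-7 bound by LIN28A, rose with a log2 fold change of 0.34, NUP153 of the nuclear pore with 0.38 and the exportin XPO1 with 0.31.

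Dicer partners and RISC loading factors were mixed, with 4 higher, 6 lower and 7 not passing of 17 (median 0.01). The chaperone genes DNAJB1 (log2 fold change −0.56) and STIP1 (−0.25) fell, as did IPO8 (−0.53), an importin that binds Argonautes. PRKRA, a Dicer partner known as PACT, rose (0.27). Counts in this list moved with the scaling: with library totals alone 8 were higher and 3 lower. Without LINC01638 siRNA replicate B, or without control replicate C, 2 were higher.

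Among 23 Argonaute partners and turnover factors 13 rose, 7 fell and 3 did not pass (median 0.15). Beside TNRC6B, the helicase gene DDX6 rose (log2 fold change 0.42), to 330 ± 4.99 CPM with LINC01638 siRNA against 247 ± 6.32 CPM with control siRNA (edgeR adjusted p = 3.56e-07). ANKRD52, a subunit of the phosphatase that acts on AGO2, fell (−0.51), to 346 ± 19.4 CPM with LINC01638 siRNA against 490 ± 14.1 CPM with control siRNA (edgeR adjusted p = 1.22e-07). The LIM protein gene AJUBA also fell (−0.38).

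Deadenylation, decapping and decay factors, which act downstream of TNRC6, rose in 16 of 33 cases and fell in 8, while 9 did not pass (median 0.12). TOB2, an adaptor of the deadenylase, fell 2.29-fold and EIF4E2, a repressive cap-binding protein, 2.04-fold, with log2 fold changes of −1.19 and −1.03 (edgeR adjusted p = 5.10e-12 and 8.03e-12). BTG2, another deadenylase adaptor, rose 2.10-fold to 29.7 ± 2.25 CPM with LINC01638 siRNA, against 14.1 ± 1.22 CPM with control siRNA (edgeR adjusted p = 4.52e-10). DCP1A of the decapping complex rose 1.57-fold. With library totals alone 2 genes of this list were called lower, and 5 without LINC01638 siRNA replicate A or without control replicate B.

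Of 10 PIWI pathway genes, which act mainly in germ cells, 2 were tested. PLD6 rose 2.08-fold and MOV10L1 fell 1.59-fold, at means of at most 5.21 CPM. None of PIWIL1, PIWIL2, PIWIL3 and PIWIL4 passed the filter, with at most 15 counts in a library. Of the 2 genes of double-stranded RNA uptake, SIDT2, a lysosomal membrane protein, rose (log2 fold change 0.27, edgeR adjusted p = 9.58e-04), and SIDT1 was not tested.

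Host transcripts, the long RNAs from which miRNAs are cut, changed in both directions. Of 85 on the list 36 were tested, of which 7 rose, 10 fell and 19 did not pass (median −0.05). Without control replicate C, 11 of them were higher and 6 lower. MIR34AHG, the host of miR-34a, had 4.21, 3.68 and 3.81 CPM in replicates A, B and C given LINC01638 siRNA, against 0.844, 0.572 and 0.716 CPM in the control replicates, a 5.42-fold rise (log2 fold change 2.44, SE 0.169, edgeR adjusted p = 3.19e-10). MIR100HG, whose span holds the hairpins of miR-100, let-7a-2 and miR-125b-1, fell 1.76-fold to 10.5 ± 0.794 CPM with LINC01638 siRNA, against 18.3 ± 1.18 CPM with control siRNA (edgeR adjusted p = 3.88e-08). MIR503HG fell 2.07-fold and MIR210HG 1.96-fold (edgeR adjusted p = 4.31e-08 and 2.65e-06). These counts are of the host RNAs, and mature miRNAs were not measured.

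**Figure D5:**
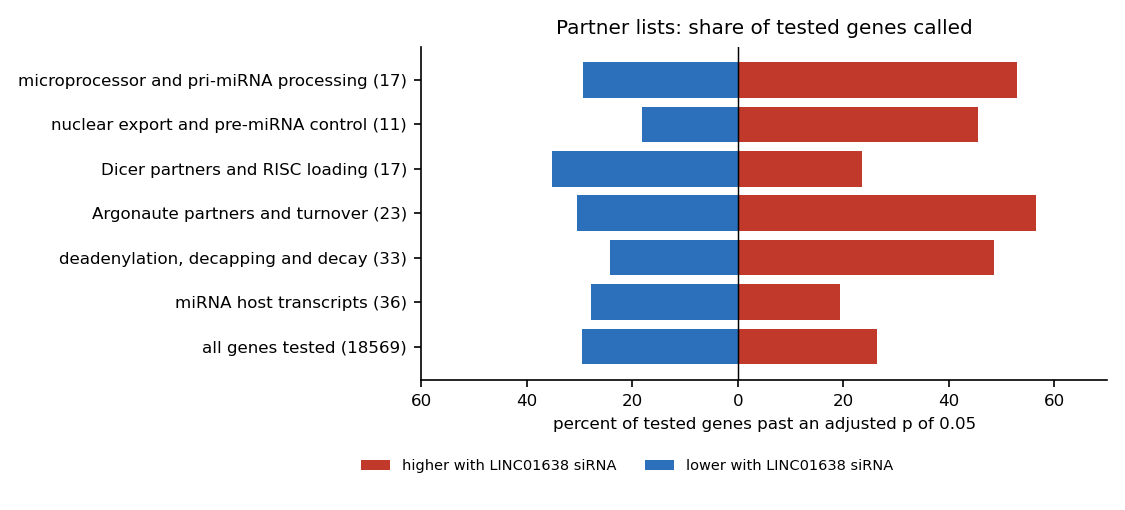
Percent of tested genes called higher (red, right) and lower (blue, left) with LINC01638 siRNA in the 6 pathway lists with at least 5 tested genes and, in the bottom bar, among all 18569 genes tested (26.3% and 29.6%). Numbers in brackets are genes tested. When only protein-coding genes were fitted, 4442 of 13586 were called higher and 4519 lower.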

How the data were processed

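Per the labels' protocols, ribosomal RNA was depleted and a directional kit was used for the libraries, and per the series' design text reads were paired ends of 50 bases. Per the submitters' processing notes, the tools were STAR 2.7.10b and R 4.2.1 and the genome GRCh38 (hg38). The deposited values are the authors' raw counts per gene in 3 columns (without strand, first strand, reverse strand), and reads mapping to several places are listed as 0. Which annotation release and settings were used is not given in the sources used here. Of these columns, the reverse-strand column was used. The 4 rows without a gene entered neither library sizes nor tests. In the reverse-strand column they held unmapped reads (13.0% of all reads with LINC01638 siRNA and 12.3% with control siRNA). They also held mapped reads outside exons of the strand counted, whose share is given in the results. Reads over several genes made up 7.17% of mapped reads with LINC01638 siRNA and 7.49% with control siRNA.

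Of 62696 identifiers, 61918 matched a symbol exactly and 754 without the version. Spans, gene classes and exon lengths came from GENCODE 29 on GRCh38, possibly another release than the authors counted with. Of the members' 50-base transcript windows, at least 98.7% are in no other gene's annotated transcripts. Counts were filtered with filterByExpr (minimum count 10, minimum total 15), scaled by TMM and tested with edgeR 4.0.16's quasi-likelihood test in R 4.3.3 (robust, group as the only term, common biological coefficient of variation 5.62%), with Benjamini-Hochberg adjustment over all 18569 genes and a threshold of 0.05. A positive log2 fold change means higher with LINC01638 siRNA, and its SE was taken as its size over the root of the F statistic. Shares, sums and ratios of few genes were compared by exact two-sided permutation tests over libraries. No list test was run. Scripts were tested on simulated data. Alternatives used DESeq2 1.42.0 and limma 3.58.1 too. Figures were drawn with matplotlib 3.10.9.

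The members and lists were chosen with earlier results of these data known. Named genes are LINC01638, the 10 members and, of each list, the 4 of lowest p among those past the threshold (fewer where fewer passed; where none passed, the 2 most abundant). Other named genes were chosen after their values were seen. Intervals of log2 fold changes come from the edgeR fit and include the spread between libraries.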

Additional observations from a re-analysis of the deposited data

Results flagged for a closer look

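Reads on the strand opposite to the gene, in the column that no comparison used, were divided by the total gene counts of their library. Their mean was then higher with LINC01638 siRNA for 8 of the 10 members. For 2 of them, XPO5 and AGO3, every LINC01638 siRNA library was also above every control library. For XPO5 they numbered 99, 72 and 94 in replicates A, B and C given LINC01638 siRNA, against 36, 37 and 39 in the control replicates, 2.27-fold higher after this division. For AGO3 they numbered 14, 13 and 17 with LINC01638 siRNA, against 11, 6 and 10 with control siRNA, 1.59-fold higher after the same division. TNRC6C, at 2.20-fold, had 10, 14 and 12 such reads with LINC01638 siRNA, against 3, 9 and 3 with control siRNA, and its groups overlapped after the division. The mean was lower with LINC01638 siRNA for the other 2 members, AGO4 and DROSHA. Exons of XPO5, AGO3 and TNRC6C share 348, 86 and 1438 bases with genes on the other strand (POLR1C, AL138787.2 and TNRC6C-AS1). Reads of those genes can be among the reads given here, and their part was not tested. None of these differences was tested. How many of all genes showed such differences was not counted, so the counts of 8 and 2 of the 10 show no trait of the members. Over all genes, this column held 3602799 to 4126449 counts per LINC01638 siRNA library and 3148757 to 3801566 per control library.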

How the results depend on the processing

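The 5 members called higher and the 4 called lower kept their direction and their call under all 15 alternatives: DESeq2's size factors and Wald test, limma-voom, library totals, no filter, a filter asking for 1 CPM in 3 libraries with a mean of 10 counts, the replicate block, counting without strand, protein-coding genes only, and leaving out each of the 6 libraries. The log2 fold change of AGO4 ran from −1.11 to −0.95. The calls nearest to the threshold were AGO3 without LINC01638 siRNA replicate A (adjusted p = 0.0484 by edgeR) and AGO2 with library totals alone (0.0460). DGCR8 passed under none of them (adjusted p from 0.198 to 0.820 by edgeR, DESeq2 or limma), and its log2 fold change was 0.0457 with library totals alone. That scaling moved the median of all genes by 0.10 on the log2 scale and called 6349 genes higher and 4288 lower, against 4887 and 5503. Leaving out 1 library gave 4372 to 4681 genes higher and 5049 to 5409 lower. The TNRC6C share of TNRC6 counts differed by −0.124 to 0.441 percentage points when 1 library was left out, that of TNRC6A by −3.26 to −1.45 and that of TNRC6B by 1.11 to 2.93, and the Argonaute shares kept their direction. Of the lists, 12 counts of calls moved by over 1.5 times, 5 of them with library totals. The deadenylation list had 5 lower without LINC01638 siRNA replicate A or control replicate B. The host transcripts had 11 higher and 6 lower without control replicate C, and 11 higher with library totals. Dicer partners had 2 higher without strand and without LINC01638 siRNA replicate B or control replicate C, and export genes had 1 lower with library totals. With the replicate letter as a block edgeR called 4676 higher and 5286 lower. Same-lettered libraries did not deviate together (correlations of −0.120, −0.0536 and −0.0129). The labels do not say whether the letters mark pairs, and weak correlations over all genes cannot settle it. A gene with 0 counts may still be present below what these depths detect, or its reads may be kept in the row for reads over several genes.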
